A study of Homo sapiens with 12 samples.

Results

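The genes of the E2F transcription factors and of the retinoblastoma (RB) family were examined in HCT116 cells before and after the induced degradation of SDS22, a regulator of protein phosphatase PP1. The set was taken by gene name, with earlier results of these data known. It holds E2F1, E2F2, E2F3, E2F4, E2F5, E2F7 and E2F8, and the pocket protein genes RB1, RBL1 and RBL2. These are 10 of the 58233 genes in the deposited count table, and all 10 were among the 16657 genes with enough reads to be tested.

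E2F proteins bind the promoters of genes that cells need to enter S phase, most of them together with a DP partner. RB, p107 (from RBL1) and p130 (from RBL2) bind E2F proteins and hold those promoters silent until cyclin-dependent kinases phosphorylate the pocket proteins, and PP1 is a known phosphatase of RB. E2F1 to E2F3 are classed as activators, E2F4 and E2F5 as repressors that work with p130 and p107 in resting cells, and E2F7 and E2F8 as atypical repressors that need neither a DP partner nor a pocket protein.

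HCT116 is a human colorectal carcinoma line. The parental cells were HCT116 Tet-OsTIR1, in which both AAVS1 alleles express the rice F-box protein TIR1 from a tetracycline-inducible promoter, so that all 4 groups carry this transgene. In the SDS22-degron cells, which derive from colonies that were picked and grown up, the endogenous SDS22 gene (PPP1R7) encodes SDS22-mAID-mClover. Doxycycline (Dox) turns on TIR1 and the auxin IAA then directs the tagged protein to the proteasome. Each line was used without treatment and after treatment with Dox/IAA, which gives 4 groups. Treated cells received Dox at 2 µg/ml and IAA at 500 µM for 48 h, and each group had 3 libraries that the labels call biological replicates. The labels do not say whether these came from separate cultures, so p-values measure the spread between these libraries, which may be partly technical.

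The libraries held 12133915 to 14657508 reads on genes. Values are given below as CPM, read counts scaled to the size of the library, here with the TMM factors of edgeR. PPP1R7 mRNA was at 40.1 to 51.1 CPM over the 12 libraries. The degron acts on the protein, so this transcript does not check the labels. Of 8 markers of colon epithelium, EPCAM, KRT8, KRT18, KRT19, CDH1 and CDX2 were at 20.5 CPM or more in every library, while VIL1 and LGALS4 were at most at 0.153 CPM. Among markers of other cell types, PTPRC, CD3E, PECAM1 and COL3A1 were at 0.330 CPM or less, and COL1A1 was at 9.88 to 31.7 CPM. COL1A1 was higher with Dox/IAA in both lines, with log2 fold changes of 0.94 in SDS22-degron and 0.81 in parental cells, and its part in the results was not tested.

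After SDS22 degradation most of the family was expressed at a lower level. Between the treated lines, E2F1, E2F2, E2F3, E2F4, E2F7, E2F8 and RBL1 were lower in SDS22-degron than in parental cells, which is 7 of the 10 genes. By this test 0 were higher, also at an unadjusted p under 0.05 and in DESeq2. Over all tested genes, 23.1% were lower and 21.8% higher by the same call. A call was made where the Benjamini-Hochberg adjusted p, over 16657 genes, was under 0.05 in the quasi-likelihood test of edgeR. E2F5, RB1 and RBL2 did not pass. The median log2 fold change of the 10 genes was -0.80, beside -0.01 for all tested genes. At the cut-off that the study used, an unadjusted p under 0.05 with a log2 fold change under -1, E2F1, E2F2 and E2F8 passed, where 3.38% of all tested genes did. The study took p from edgeR's likelihood ratio test, whereas here and wherever its cut-off is used below p is from the quasi-likelihood test.

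Within SDS22-degron cells, Dox/IAA lowered 7 of the 10 genes, where 25.5% of all tested genes fell, and raised RBL2, where 26% rose. The genes that fell were E2F1, E2F2, E2F3, E2F4, E2F7, E2F8 and RBL1, with a median of -0.75 over all 10. This comparison shares the treated SDS22-degron libraries with the previous one and does not repeat it independently. E2F1, E2F2 and E2F8 passed the study's cut-off here, as did 4.02% of all tested genes. In parental cells, which lack the degron tag, the same treatment lowered E2F4 (15.7% of all tested genes fell), and the median was -0.01. The number that rose there was 0 in edgeR's quasi-likelihood test, by which 15.9% of all tested genes rose. It was 0 in DESeq2 too, and 1 (RB1) at an unadjusted p under 0.05. The difference between the responses of the lines was then tested itself, as the interaction of cell line and treatment. It was negative for E2F1, E2F2, E2F3, E2F7, E2F8 and RBL1 (8.35% of all tested genes) and positive for RBL2 (6.03%). RNA of whole cultures was measured, so fewer cells in a given phase of the cell cycle and less RNA per cell cannot be told apart in any of these results.

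**Figure D1:**
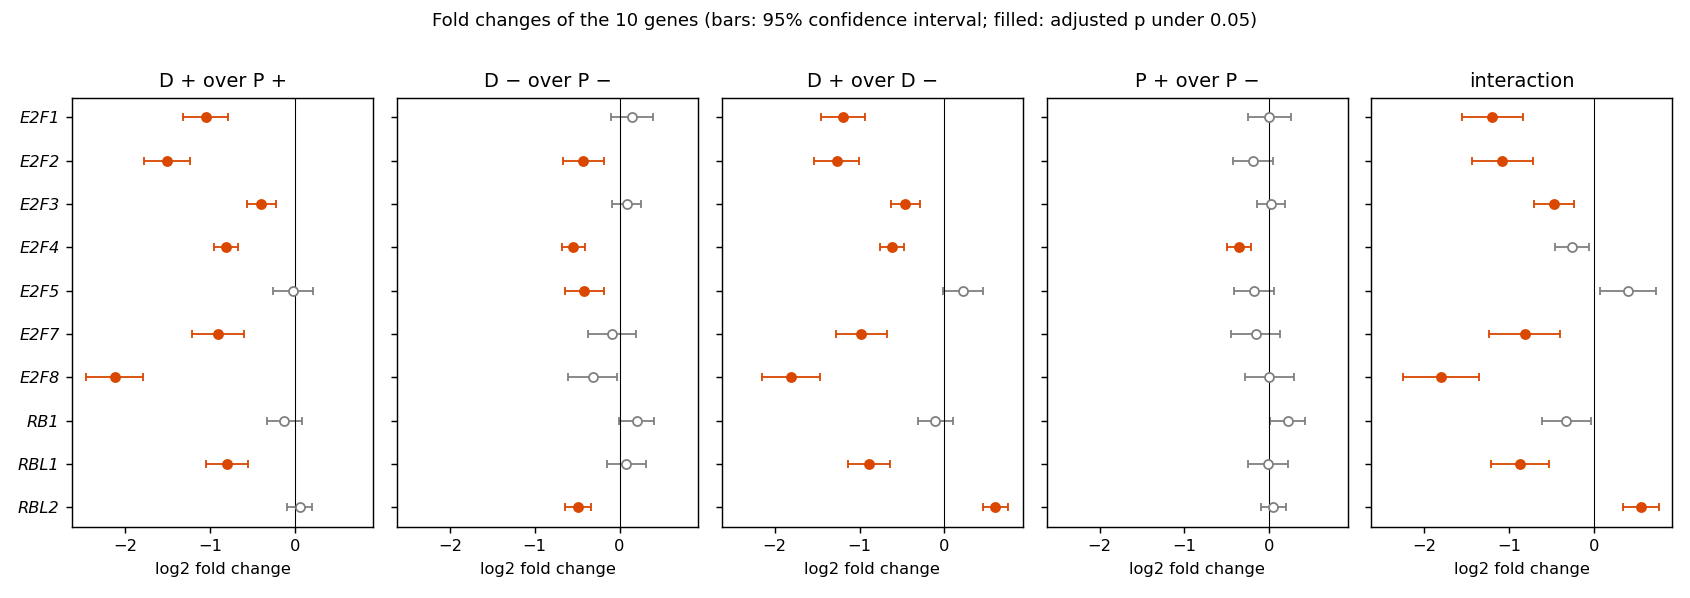
Log2 fold changes (x axis) of the 10 genes in 5 comparisons, with 95% confidence intervals as bars and filled points for an adjusted p under 0.05 (P parental, D SDS22-degron, - untreated, + Dox/IAA). In the comparisons that include treated SDS22-degron cells, E2F8 is farthest to the left at -2.12 and -1.81, whereas in parental cells E2F4, at -0.35, is the filled point.

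Without treatment the lines already differed for part of the family. E2F2, E2F4, E2F5 and RBL2 were lower in untreated SDS22-degron than in untreated parental cells, 4 of the 10 genes, where 15% of all tested genes were lower. In edgeR's quasi-likelihood test 0 of the 10 were higher, where 13.2% of all tested genes were, and 0 were so at an unadjusted p under 0.05 or in DESeq2. RB1 was higher, however, under the GC correction, with or without the replicate block, and under full-quantile normalization over GC bins. The median was -0.20. For E2F2 and E2F4, which were also lower between the treated lines, part of that difference was thus measured without SDS22 degradation.

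The promoters of the activators are shown because the E2F genes are themselves known E2F targets. Promoters from 250 bases before to 50 bases after the start were taken from RefSeq (GRCh38.p14) and searched on both strands for an E2F site, written as TTTCCCGC, TTTCGCGC, TTTGCCGC or TTTGGCGC. Of the 10 genes, 8 had an entry and 7 could be used, with a start at most 494 bases from that in the count table. An E2F site was found in 4 of these 7, namely E2F1, E2F2, E2F3 and RBL1. Over all 35116 promoters, 3.31% held one. A wider set of letters, chosen after the sequences had been seen, also allowed a final G (TTTCCCGG, TTTCGCGG, TTTGCCGG and TTTGGCGG). It was present in 6.19% of all promoters when counted together with the other words and in the same 4 of the 7. The stretches around these matches read as follows, each 5′ to 3′ on the strand of the gene, with the matched letters in capitals.
E2F1, chr20:33686368-33686452, minus strand: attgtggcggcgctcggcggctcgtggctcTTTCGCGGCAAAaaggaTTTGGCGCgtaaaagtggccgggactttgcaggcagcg
E2F2, chr1:23531238-23531320, minus strand: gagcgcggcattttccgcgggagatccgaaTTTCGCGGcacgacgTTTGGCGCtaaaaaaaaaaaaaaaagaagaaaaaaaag
E2F3, chr6:20401796-20401877, plus strand: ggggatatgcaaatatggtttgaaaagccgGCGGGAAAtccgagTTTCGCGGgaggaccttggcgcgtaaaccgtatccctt
RBL1, chr20:37095976-37096053, minus strand: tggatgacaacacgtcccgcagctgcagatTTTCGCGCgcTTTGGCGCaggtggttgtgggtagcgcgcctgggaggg

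Relative to the start, E2F1 had TTTGGCGC from -20 to -13, TTTGCCGC on the opposite strand from -33 to -26 and, overlapping the latter, the wider TTTCGCGG from -37 to -30. E2F2 had TTTGGCGC from -42 to -35 behind a TTTCGCGG from -57 to -50. In E2F3, TTTCCCGC lay on the opposite strand from -53 to -46 and TTTCGCGG from -39 to -32. RBL1 had TTTCGCGC from -26 to -19 and TTTGGCGC from -16 to -9. All E2F matches of these 4 genes thus lay just before the start. The letters were also searched for CHR, the element TTTGAA or TTTAAA that the MuvB complexes bind, which 23.99% of all promoters held. E2F3 had TTTGAA from -65 to -60. RBL2 had TTTAAA from -187 to -182 and from -127 to -122, which reads alike on both strands, and TTTGAA from 25 to 30, and it had no E2F site. E2F4 and E2F7 had neither. A match is a description of the letters and no measurement of binding.

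Among the activators, E2F2 and E2F1 differed most between the treated lines, and E2F3 less. E2F1 (ENSG00000101412, chromosome 20, 33675683 to 33686404, minus strand) is known to activate replication genes and, at high activity, pro-apoptotic genes. Parental cells had 54.2, 55.4 and 55.5 CPM of E2F1 when untreated and 55.4, 54.5 and 55.5 CPM with Dox/IAA. SDS22-degron cells had 62.6, 59.6 and 60.8 CPM of E2F1 when untreated, and 32.8, 18.6 and 28.6 CPM with Dox/IAA. The 9 other libraries thus lay in a narrow band and all 3 treated SDS22-degron libraries lay below it, replicate 2 the farthest. E2F1 was 2.07-fold lower between the treated lines (log2 fold change -1.05, standard error 0.125, adjusted p = 2.34e-06 in edgeR's quasi-likelihood test). Within SDS22-degron cells it fell 2.29-fold (-1.19, adjusted p = 3.11e-07 in the same edgeR test), and in parental cells its value was 0.00, with a 95% confidence interval from -0.25 to 0.25. The interaction was -1.20 (adjusted p = 0.000171 in edgeR). Between the untreated lines the log2 fold change was 0.15 (adjusted p = 0.380 in edgeR).

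E2F2 (ENSG00000007968, chromosome 1, 23506430 to 23531220, minus strand), another activator, was lower in both comparisons of the lines. It was at 37.7, 40.4 and 37.2 CPM in untreated and at 31.3, 40.0 and 29.9 CPM in treated parental cells. In SDS22-degron cells E2F2 was at 26.2, 28.3 and 31.3 CPM without and at 13.1, 9.60 and 12.8 CPM with Dox/IAA. The treated SDS22-degron libraries were again below all others, and the untreated ones lay below those of untreated parental cells. The log2 fold change was -1.51 between the treated lines (2.84-fold lower, standard error 0.128, adjusted p = 4.49e-08 in edgeR's quasi-likelihood test) and -0.43 between the untreated lines (adjusted p = 0.00899). The latter was lost without replicate 1 of untreated SDS22-degron cells (adjusted p = 0.0516 in edgeR). Within SDS22-degron cells E2F2 fell by 1.27 (adjusted p = 2.28e-07 in edgeR), and the interaction was -1.08 (adjusted p = 0.000391 in edgeR).

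E2F3 (ENSG00000112242, chromosome 6, 20401906 to 20493715, plus strand), whose locus also encodes a shorter isoform that gene counts do not separate, had the smallest fold change of the activators. Its levels were 63.9, 80.7 and 77.2 CPM in untreated and 77.2, 73.6 and 73.8 CPM in treated parental cells. They were 76.5, 82.5 and 75.9 CPM in untreated and 58.9, 54.4 and 57.8 CPM in treated SDS22-degron cells. The highest treated SDS22-degron library was below the lowest of the other 9, which was replicate 1 of untreated parental cells. E2F3 was 1.31-fold lower between the treated lines (-0.39, standard error 0.0801, adjusted p = 0.000597 in edgeR's quasi-likelihood test). It fell by 0.46 within SDS22-degron cells (adjusted p = 0.000102 in edgeR), and the interaction was -0.48 (adjusted p = 0.00794 in edgeR). Its confidence interval between the treated lines, -0.56 to -0.22, did not overlap those of E2F1 (-1.31 to -0.79) and E2F2 (-1.77 to -1.24), although the difference between the genes was not tested. Pseudogenes E2F3P1 and E2F3P2 had at most 1.83% of its level.

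**Figure D2:**
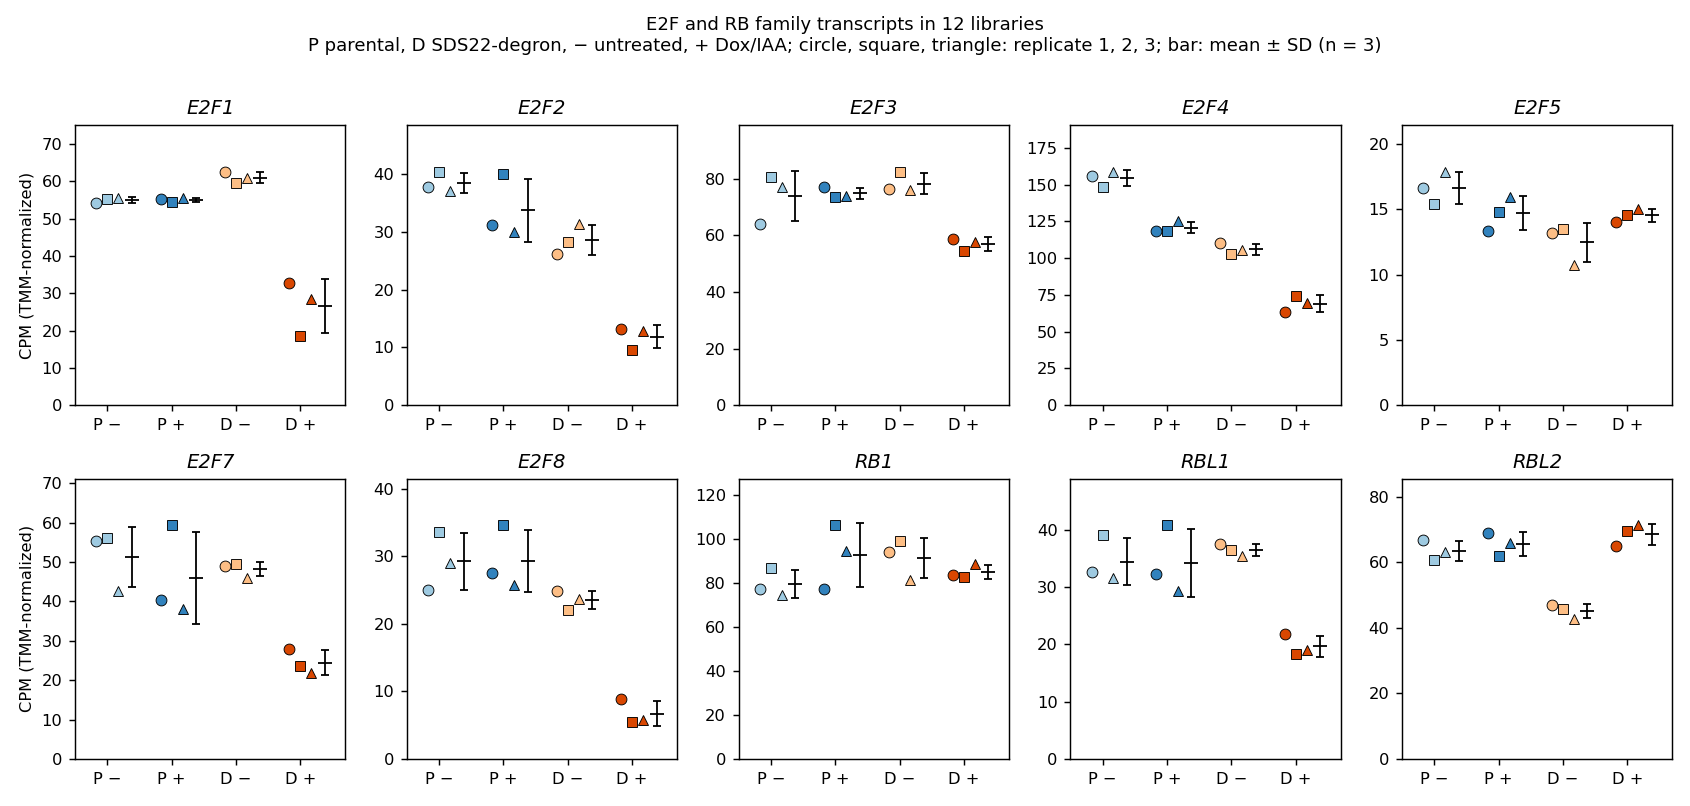
TMM-normalized CPM (y axes, starting at 0) of the 10 genes in the 12 libraries by group (P parental, D SDS22-degron, - untreated, + Dox/IAA), with the mean ± SD of 3 libraries as bars. For E2F1, E2F2, E2F3, E2F4, E2F7, E2F8 and RBL1 all 3 treated SDS22-degron libraries (red) lie below the other 9, and for RBL2 the untreated SDS22-degron libraries (light orange) lie below the other 9.

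The repressive E2F genes behaved differently from each other. E2F4 (ENSG00000205250, chromosome 16, 67192169 to 67198918, plus strand) encodes the main E2F of the DREAM complex, which silences cell cycle genes in resting cells. Its levels were 156, 148 and 159 CPM in untreated and 118, 119 and 125 CPM in treated parental cells. In SDS22-degron cells E2F4 was at 110.0, 103 and 105 CPM without and at 63.2, 74.3 and 69.6 CPM with Dox/IAA. The 4 groups did not overlap and formed a descending series. E2F4 was lower between the treated lines (-0.81, standard error 0.0683, adjusted p = 4.49e-08 in edgeR's quasi-likelihood test) and between the untreated lines (-0.54, adjusted p = 8.64e-06). Dox/IAA lowered it by 0.62 in SDS22-degron (adjusted p = 6.45e-07 in edgeR) and by 0.35 in parental cells (adjusted p = 0.000604 in edgeR). The interaction of -0.26 did not pass (adjusted p = 0.0713 in edgeR), with a 95% confidence interval from -0.46 to -0.06, and it passed under a GC correction, under full-quantile normalization over GC bins, and without replicate 2 of treated SDS22-degron cells.

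E2F5 (ENSG00000133740, chromosome 8, 85177225 to 85217158, plus strand), the other p130 partner, was the least expressed of the family in 3 groups. Untreated and treated parental cells had 16.6, 15.4 and 17.9 CPM and 13.3, 14.8 and 15.97 CPM of E2F5. SDS22-degron cells had 13.2, 13.5 and 10.7 CPM untreated and 14.0, 14.6 and 14.99 CPM treated. The treated groups of the lines overlapped, while the untreated SDS22-degron libraries lay below those of untreated parental and of treated SDS22-degron cells. E2F5 was lower between the untreated lines (-0.41, standard error 0.111, adjusted p = 0.00904 in edgeR's quasi-likelihood test), which was lost without replicate 3 of untreated SDS22-degron cells (adjusted p = 0.0560 in edgeR). Between the treated lines the value was -0.02, with a 95% confidence interval from -0.25 to 0.22, and within SDS22-degron cells it was 0.22 (adjusted p = 0.113 in edgeR). Under full-quantile normalization over GC bins E2F5 rose within SDS22-degron cells (0.33, adjusted p = 0.0203 in edgeR) and the interaction passed as well (0.52, adjusted p = 0.0322). E2F5 shares bases with C8orf59 on the opposite strand, which had 228% of its mean CPM and a log2 fold change of -0.49 with Dox/IAA in SDS22-degron cells (adjusted p = 0.000205 in edgeR). The library kit was stranded but the strand setting of the counting is not given in the sources used here, so reads of the overlap may be assigned to either gene.

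The atypical E2F genes, which encode repressors that are themselves made in S phase, were both lower after SDS22 degradation. E2F8 (ENSG00000129173, chromosome 11, 19224063 to 19241620, minus strand) had the largest fold change of the family. Its levels were 25.1, 33.6 and 29.1 CPM in untreated and 27.6, 34.6 and 25.8 CPM in treated parental cells. In SDS22-degron cells E2F8 was at 24.9, 22.1 and 23.7 CPM without and at 8.85, 5.50 and 5.77 CPM with Dox/IAA. The last 3 values rest on 116, 71 and 70 reads, the smallest counts of the family, and lie far below the rest. E2F8 was 4.36-fold lower between the treated lines (-2.12, standard error 0.161, adjusted p = 1.46e-08 in edgeR's quasi-likelihood test) and fell 3.50-fold within SDS22-degron cells (-1.81, adjusted p = 6.43e-08). In parental cells the value was 0.00 (95% confidence interval -0.28 to 0.29), and the interaction was -1.81 (adjusted p = 3.93e-05 in edgeR). Between the untreated lines it was -0.32 (adjusted p = 0.0960 in edgeR), and it passed there without the filter on low counts and when only the groups compared were fitted.

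E2F7 (ENSG00000165891, chromosome 12, 77021247 to 77065580, minus strand) can pair with E2F8 on DNA. It was at 55.3, 56.1 and 42.6 CPM in untreated and at 40.4, 59.3 and 38.2 CPM in treated parental cells. In SDS22-degron cells E2F7 was at 49.1, 49.5 and 46.1 CPM without and at 27.9, 23.7 and 21.8 CPM with Dox/IAA. The parental libraries were spread widely, and the treated SDS22-degron libraries lay below all of them. E2F7 was 1.87-fold lower between the treated lines (-0.91, standard error 0.145, adjusted p = 5.72e-05 in edgeR's quasi-likelihood test), fell by 0.98 within SDS22-degron cells (adjusted p = 1.73e-05) and had an interaction of -0.82 (adjusted p = 0.00972). In parental cells the value was -0.16 (adjusted p = 0.404 in edgeR). Without replicate 2 of treated parental cells, its highest library, E2F7 and E2F2 were lower there as well, and 3 of the 10 genes were called in that comparison.

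The pocket protein genes took 3 different courses. RBL1 (ENSG00000080839, chromosome 20, 36996349 to 37095995, minus strand) encodes p107, which is known to be made in cycling cells. Parental cells had 32.7, 39.2 and 31.6 CPM of RBL1 untreated and 32.3, 40.8 and 29.3 CPM treated. Untreated SDS22-degron cells had 37.5, 36.5 and 35.4 CPM of RBL1, and treated ones 21.7, 18.4 and 18.9 CPM. All libraries but the treated SDS22-degron ones were thus in the same range. RBL1 was 1.73-fold lower between the treated lines (-0.79, standard error 0.117, adjusted p = 2.50e-05 in edgeR's quasi-likelihood test), fell 1.85-fold within SDS22-degron cells (-0.89, adjusted p = 4.61e-06) and had an interaction of -0.87 (adjusted p = 0.00140). In parental cells its value was -0.02, with a 95% confidence interval from -0.25 to 0.22.

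RBL2 (ENSG00000103479, chromosome 16, 53433977 to 53491649, plus strand) encodes p130, the pocket protein of the DREAM complex, and is the gene of the set that rose. Its levels were 66.7, 60.7 and 63.1 CPM in untreated and 69.0, 61.9 and 66.0 CPM in treated parental cells. In SDS22-degron cells RBL2 was at 47.1, 45.7 and 42.7 CPM without and at 64.9, 69.5 and 71.2 CPM with Dox/IAA. The untreated SDS22-degron libraries stood below all others, and the treated ones overlapped the parental ones. Dox/IAA raised RBL2 1.52-fold in SDS22-degron cells (0.60, standard error 0.0714, adjusted p = 1.50e-06 in edgeR's quasi-likelihood test), and the interaction was 0.55 (adjusted p = 0.00120). Between the untreated lines it was lower (-0.49, adjusted p = 5.45e-05 in edgeR), and between the treated lines the difference was 0.06, with a 95% confidence interval from -0.08 to 0.21. Within SDS22-degron cells RBL2 thus went from below the parental range to inside it or just above. RBL2 shares bases with AKTIP on the opposite strand, which had 17.1% of its mean CPM and a log2 fold change of 0.31 in SDS22-degron cells (adjusted p = 0.0561 in edgeR).

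RB1 (ENSG00000139687, chromosome 13, 48303751 to 48481986, plus strand), which encodes RB itself, passed in no comparison in the fit reported. Its levels were 77.3, 86.9 and 74.4 CPM in untreated and 77.5, 106 and 94.3 CPM in treated parental cells. They were 94.0, 99.0 and 81.3 CPM in untreated and 83.5, 82.9 and 88.5 CPM in treated SDS22-degron cells. The 4 groups overlapped. Between the treated lines the log2 fold change was -0.12 (95% confidence interval -0.33 to 0.08), and within SDS22-degron cells it was -0.11 (-0.31 to 0.10). It was 0.20 between the untreated lines (adjusted p = 0.142 in edgeR), and it passed there under the GC correction (0.23, adjusted p = 0.0368), under that with the replicate block (0.0162) and under full-quantile normalization over GC bins (0.0211). In parental cells it was 0.22 (adjusted p = 0.102 in edgeR's quasi-likelihood test) and passed without replicate 1 of treated parental cells. RB1 was also lower between the treated lines when that library was left out (-0.24, adjusted p = 0.0426 in edgeR). The interaction was -0.33 (95% confidence interval -0.62 to -0.03) and did not pass (adjusted p = 0.131 in edgeR). It passed, with a negative value, without the same library. A pseudogene on the opposite strand inside RB1, PCNPP5, had 28.1% of its mean CPM.

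Levels of different genes were compared per kb of the gene length in the table. E2F4 was the most expressed of the 10 in each group, from 43.1 ± 1.52 CPM per kb (SD, n = 3) in untreated parental cells to 19.3 ± 1.56 CPM per kb in treated SDS22-degron cells. E2F1 followed in untreated parental, treated parental and untreated SDS22-degron cells, at 22.0, 22.0 and 24.4 CPM per kb. RB1 and E2F3 came next in these 3 groups, with overlapping libraries. In treated SDS22-degron cells RB1 was in second place at 13.8 ± 0.499 CPM per kb. E2F3 (11.04), E2F1 (10.6) and RBL2 (9.36) came after it, E2F1 overlapping both E2F3 and RBL2. E2F5 was lowest in the other groups at 2.10 to 2.81 CPM per kb, whereas in treated SDS22-degron cells E2F8 had the lowest mean, 1.62 ± 0.450 CPM per kb. The libraries of E2F8 overlapped there with those of E2F2 (2.17), and those of E2F2 with E2F5 (2.45).

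Ratios and shares within a library do not depend on the scaling between libraries. Those below were chosen after the values had been seen and are given without a test. RBL2 exceeded RBL1 per kb 1.26- to 1.66-fold in untreated and 1.23- to 1.83-fold in treated parental cells. Without treatment their ratio in SDS22-degron cells was 0.983 to 1.02, and with Dox/IAA it was 2.43 to 3.08, so the treated libraries were above and the untreated ones below all parental libraries. The summed level of E2F1, E2F2 and E2F3, which does depend on the TMM scaling, was 40.9 to 45.2 CPM per kb in the 9 libraries that were not treated SDS22-degron cells, and 19.7 to 26.9 CPM per kb in those. E2F3 made up 30.2% to 35.5% of this sum in the 9 libraries and 42.4% to 53.4% after SDS22 degradation. E2F7 and E2F8 together made up 13.1% to 18.4% of the 7 E2F transcripts in the 9 libraries, and 9.38% to 12.3% after SDS22 degradation. The ratio of E2F7 to E2F8 was between 0.962 and 1.47 in the former and between 2.07 and 2.83 in the latter. The ratio of E2F5 to E2F8 went from 0.298 to 0.463 in the former to 1.11 to 1.85 in the latter.

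**Figure D3:**
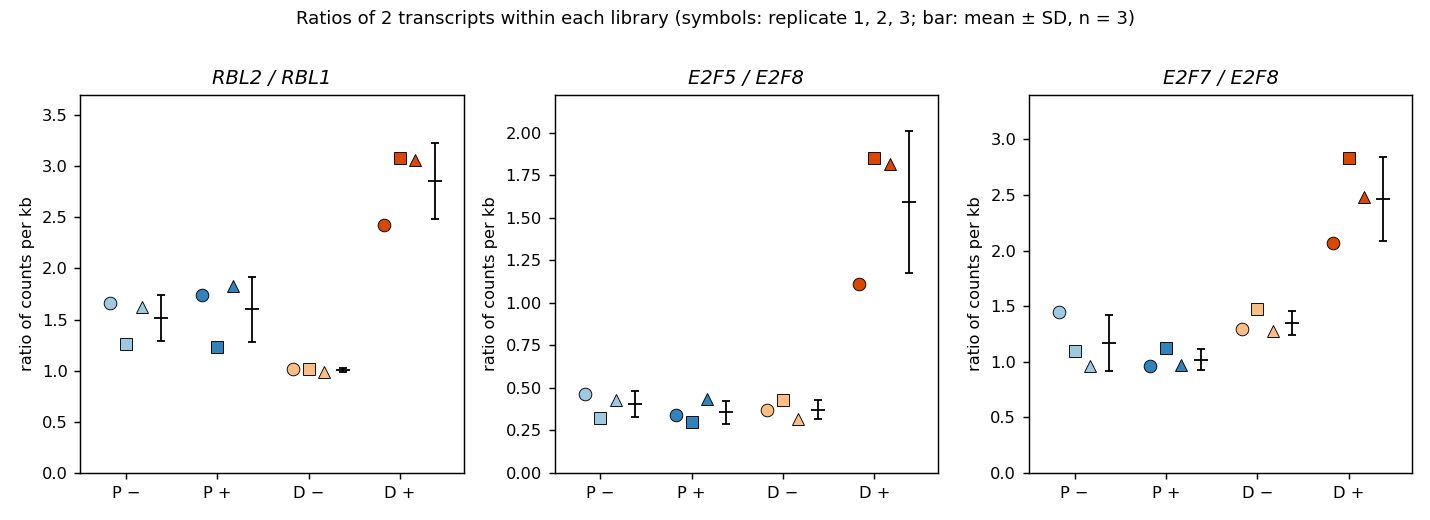
Ratios of counts per kb within each library (y axes, starting at 0) by group (P parental, D SDS22-degron, - untreated, + Dox/IAA), with the mean ± SD of 3 libraries as bars. RBL2 over RBL1 lies at 2.43 to 3.08 in treated SDS22-degron cells and at 0.983 to 1.02 in untreated ones, with all parental libraries in between.

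E2F4 and RBL2 both lie on chromosome 16, whose 725 tested genes had a median log2 fold change of -0.30 between the untreated and -0.31 between the treated lines. The 40 tested genes nearest to E2F4 had medians of -0.37 and -0.35, beside -0.54 and -0.81 for E2F4 itself. Around RBL2 the medians were -0.24 and -0.28, beside -0.49 and 0.06 for RBL2. The part of the chromosome in these differences was not tested. With Dox/IAA in SDS22-degron cells the chromosome had a median of -0.03, and E2F4 (-0.62) and RBL2 (0.60) lay on opposite sides of it. The medians of the chromosomes of the other members were between -0.13 and 0.08 in both comparisons of the lines.

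The 2 genes of the DP partners took different courses. TFDP1, which encodes the main DP subunit, was at 214, 242 and 222 CPM in treated parental and at 160, 148 and 157 CPM in treated SDS22-degron cells, without overlap. It was lower between the treated lines (-0.54, adjusted p = 3.32e-06 in edgeR's quasi-likelihood test) and had an interaction of -0.54. With Dox/IAA it fell in SDS22-degron cells (-0.78) and also in parental cells (-0.24, adjusted p = 0.00876 in edgeR). TFDP2 went the other way within SDS22-degron cells, from 41.8, 41.2 and 40.4 CPM to 59.1, 57.5 and 61.4 CPM (0.53, adjusted p = 0.000246 in edgeR). It remained below the level of treated parental cells (79.9, 62.7 and 82.2 CPM), with a log2 fold change of -0.34, after -0.91 between the untreated lines. E2F6, a repressor that binds no pocket protein, passed in no comparison, with values from -0.07 to 0.14.

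A list of 18 genes held the kinases that phosphorylate pocket proteins, their cyclins and the inhibitors of these kinases, together with CDC25A and SKP2. Of these 18 genes, 17 were tested. Between the treated lines 9 were lower and 3 higher, beside 23.1% and 21.8% of all tested genes, with a median of -0.57. Within SDS22-degron cells 8 fell and 3 rose, beside 25.5% and 26% of all tested genes, with a median of -0.24. CCNE2 and CCNE1, for the E cyclins that partner CDK2, were lower by 1.77 and 0.72 on the log2 scale between the treated lines. CDC25A, for a phosphatase that activates CDK2, was lower by 1.47. CDKN1A, for an inhibitor of these kinases that p53 induces, was at 258, 265 and 297 CPM in treated parental and at 753, 829 and 891 CPM in treated SDS22-degron cells (1.59, adjusted p = 2.47e-10 in edgeR's quasi-likelihood test). It was already higher between the untreated lines (0.94) and rose further with Dox/IAA in SDS22-degron cells (0.71). CCND1, for cyclin D1, was higher by 0.77 between the treated and by 0.71 between the untreated lines, and its value with Dox/IAA in SDS22-degron cells was -0.03. Between the untreated lines CCNE2 and the inhibitor genes CDKN2A and CDKN2B were lower, and CDKN1A, CCND1 and CDKN2D were higher. CDKN1C, for another inhibitor, rose with Dox/IAA by 1.13 in SDS22-degron and by 0.78 in parental cells and was higher by 0.38 between the treated lines. CDKN2B rose by 0.95 in SDS22-degron cells, after -1.04 between the untreated lines. In parental cells CDK4 and CDKN2A fell, and CCND3, CDK6 and CDKN1C rose. CDK4 fell by more within SDS22-degron cells (log2 fold change -0.85, beside -0.40 in parental cells). It was also lower between the treated lines (-0.59) and had an interaction of -0.44. The interaction was negative for 6 genes and positive for CDKN1A, beside 8.35% and 6.03% of all tested genes. The CDKN2 genes, CDKN1C, CCND3, CDK4 and CDK6 are named after their values were seen.

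Of the genes for PP1 catalytic subunits and for PPP1R10, 2 of 4 were lower between the treated lines (23.1% of all tested genes). PPP1R10 is a PP1 partner known to act on RB. PPP1R10 differed by -0.98 (adjusted p = 3.78e-08 in edgeR's quasi-likelihood test), after -0.46 between the untreated lines, and PPP1CC by -0.21. PPP1CB had a value of -0.14 and did not pass. For PP1α, β and γ the study reports transcripts unaffected in its comparison of treated SDS22-degron with parental cells. For its differentially expressed genes the study also asked for a log2 fold change above 1, which PPP1CC did not reach here. Within SDS22-degron cells 2 of the 4 fell (25.5% of all tested genes), PPP1R10 by 0.43 and PPP1CC by 0.42. The interaction was negative for 1 of the 4, PPP1R10 (8.35% of all tested genes), and PPP1CC did not pass there. In parental cells the mean of PPP1CC was 324 CPM without and 289 CPM with Dox/IAA. With Dox/IAA in parental cells 1 of the 4, PPP1CA, was higher, where 15.9% of all tested genes were. It is named here after its value was seen.

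The MuvB core assembles with p130 and E2F4 into DREAM, and in cycling cells with the product of MYBL2 and then FOXM1. Of these 7 genes, 5 were lower and 1 higher between the treated lines, beside 23.1% and 21.8% of all tested genes. MYBL2, a classic E2F target, was at 102, 128 and 105 CPM in treated parental and at 49.3, 32.4 and 41.0 CPM in treated SDS22-degron cells (-1.45, adjusted p = 4.30e-08 in edgeR's quasi-likelihood test). Its replicate 2 was the lowest of the treated SDS22-degron libraries, as it was for E2F1. FOXM1 differed by -1.07, LIN9 by -0.75, RBBP4 by -0.41 and LIN54 by -0.32. Between the untreated lines 1 of the 7, RBBP4, was already lower and 0 were higher, beside 15% and 13.2% of all tested genes. At an unadjusted p under 0.05, 1 was higher there. RBBP4 had a mean of 225 CPM in untreated parental and 181 CPM in untreated SDS22-degron cells. LIN37 was the gene that was higher (0.91), at 3.13 CPM or less in every library, and LIN52 did not pass (-0.19). Within SDS22-degron cells 5 of the 7 fell, where 25.5% of all tested genes did. In parental cells 0 of the 7 passed by edgeR's quasi-likelihood test, by which 15.7% of all tested genes fell and 15.9% rose. At an unadjusted p under 0.05, 2 of the 7 were lower there. The interaction was negative for MYBL2, FOXM1 and LIN54, beside 8.35% of all tested genes.

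The target genes of the family were lower as a group. All 35 genes of a list of G1/S targets of E2F were lower between the treated lines (median -1.06), where 23.1% of all tested genes were. All 35 fell within SDS22-degron cells (median -1.17), where 25.5% of all tested genes fell. Between the untreated lines 8 were lower and 2 higher (median -0.11), beside 15% and 13.2% of all tested genes. In parental cells 10 fell (median -0.19), beside 15.7%, and the interaction was negative for 32 (median -0.90), beside 8.35%. MCM7, a subunit of the replicative helicase, went from 513, 503 and 502 CPM to 216, 183 and 184 CPM within SDS22-degron cells, without overlap. In parental cells MCM7 also fell, by 0.45, from 570, 607 and 568 CPM to 404, 466 and 410 CPM (adjusted p = 0.000186 in edgeR's quasi-likelihood test). MCM2 of the same helicase and the licensing factor CDT1 fell by 1.153 and 1.08 in SDS22-degron and by 0.32 and 0.43 in parental cells. Of 30 genes of this list with a promoter entry, 18 had an E2F site in any of their entries (60.0%) and 6 had CHR letters. The shares over all promoters given above count each entry by itself, so they are not the same measure.

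All 30 genes of a list of G2/M targets of DREAM, of the MYBL2-MuvB complex and of FOXM1 were lower between the treated lines as well (median -1.13), and all 30 fell within SDS22-degron cells (median -1.37). Between the untreated lines PLK1 and CDC25B were lower and 6 higher (median 0.12). In parental cells AURKB, CDC20, UBE2C, CDC25B and TPX2 fell (median -0.13), and the interaction was negative for 29 (median -1.25). The shares over all tested genes are those given above for the G1/S list. PLK1, a mitotic kinase, was at 131, 185 and 132 CPM in treated parental and at 51.9, 46.8 and 45.1 CPM in treated SDS22-degron cells. PRC1 and BUB1B, which act at the central spindle and in the spindle checkpoint, were lower by 1.23 and 1.39 on the log2 scale between the treated lines. Of 25 genes of this list with a promoter entry, 22 had CHR letters in any of their entries (88.0%) and 2 had an E2F site. CCNE1, CCNE2 and CDC25A are in both the G1/S list and the list of kinases and inhibitors.

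Of 6 pro-apoptotic targets of E2F1, 1 was lower and 2 were higher between the treated lines, beside 23.1% and 21.8% of all tested genes. TP73 was lower by 0.95 on the log2 scale. BBC3, which p53 also induces, was at 37.3, 27.8 and 41.9 CPM in treated parental and at 101, 136 and 110 CPM in treated SDS22-degron cells (1.70, adjusted p = 1.65e-08 in edgeR's quasi-likelihood test). BCL2L11 was higher by 0.67. Within SDS22-degron cells TP73 fell by 0.17, BBC3 and BCL2L11 rose by 1.43 and 0.66, and the median of the list was 0.41. In parental cells TP73 rose by 0.51. The AURKB, CDC20, CDC25B, UBE2C and TPX2 genes are likewise named after their values were seen.

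**Figure D4:**
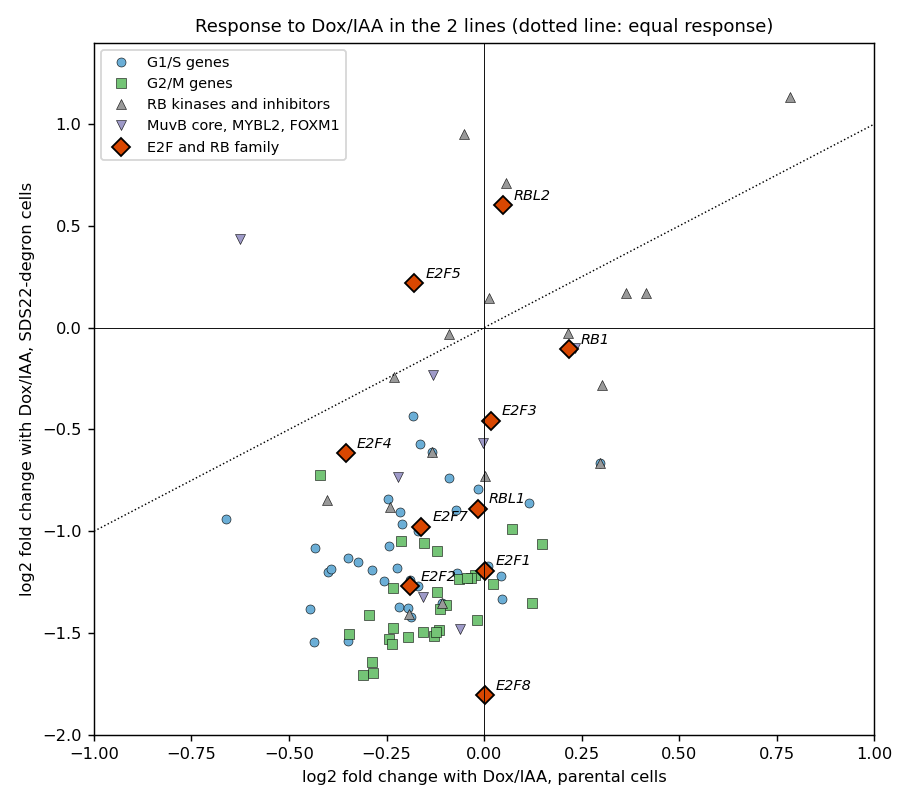
Log2 fold change with Dox/IAA in parental cells (x axis) against that in SDS22-degron cells (y axis, on another scale) for the 10 genes (orange diamonds) and 4 lists, each point 1 gene. The G1/S and G2/M genes and E2F1, E2F2, E2F3, E2F4, E2F7, E2F8, RB1 and RBL1 lie below the dotted line of equal response. RBL2 and E2F5 lie above it. For E2F4, E2F5 and RB1 the difference between the responses did not pass.

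The genes whose levels followed each member most closely over the 12 libraries were found by Pearson's r of log2 CPM among 10850 genes with a mean of at least 10 CPM. The 12 points fall into 4 groups and share libraries and depth, so r is given as a description. E2F2 was followed by STIL, CCNF and MCM5 (r = 0.992, 0.990 and 0.990). E2F8 was followed by NEK2, CDK2 and CDC25A (0.991, 0.991 and 0.991). E2F7 was closest to SKA1, CENPH and RAD51AP1 (0.990, 0.989 and 0.989) and RBL1 to KIF14, PTTG3P and CENPE (0.990, 0.988 and 0.987). Of these 12 genes, NEK2 and CENPE are on the G2/M list and MCM5 and CDC25A on the G1/S list. E2F1 was closest to RP11-424C20.2, PATL1 and MYBL2 (0.975, 0.969 and 0.966), with lower rank correlations (Spearman's rho 0.601, 0.734 and 0.524). E2F3 was closest to EXOSC9, CDCA2 and TUBA1C (0.934, 0.932 and 0.928).

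Other genes followed the remaining members. E2F4 was closest to UNC13A, RABGGTB and ERI3 (r = 0.988, 0.986 and 0.985) and RBL2 to TGIF1, TMEM87A and R3HDM4 (0.971, 0.971 and 0.970). RB1 was closest to ZNF207, AGFG1 and ST3GAL6 (0.919, 0.873 and 0.870) and E2F5 was followed by EFL1 and ZFP90 (0.871 and 0.869). RB1 and E2F5, which differed least between the groups, had the lowest r.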

How the data were processed

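RNA was sequenced from 12 libraries of poly-A selected RNA (stranded kit, single reads). The deposited table holds raw counts for each gene, as whole reads without normalization by the authors, with gene length and GC content in percent. The submitters' processing notes name cutadapt 1.15, Bowtie2 2.3.3.1, STAR 2.5.2b, SAMtools 1.5, featureCounts 1.5.3 and GRCh38; multi-mapping and strand settings are not given in the sources used here. The number of columns not mapped to a sample was 0.

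Counts were filtered with filterByExpr (minimum count 10), TMM-normalized and fitted with 4 group means in edgeR 4.0.16 (R 4.3.3). Comparisons used the quasi-likelihood F test, with Benjamini-Hochberg adjustment over 16657 genes, and standard errors and 95% confidence intervals came from the F statistic. Replicates differed by more than counting noise (chi-square per degree of freedom 2.16 to 9.73), and the common biological coefficient of variation was 7.48%. On simulated data, 67 genes of 16458 were changed by 0.5, 67 by 1 and 66 by 1.5 (log2). Of those changed by 0.5 and 1, 61.2% and 83.6% were recovered between the treated lines, and 29.9% and 65.7% in the interaction. In the data, 7486 and 2396 genes were called in these comparisons, and recovery with that many changed genes was not tested. Same-numbered libraries deviated together (r over 0.1 in all 3 pairs) between the treated lines (0.101 to 0.138) and within parental cells (0.124 to 0.246). This pairing comes from the data, not from the labels, and the fit without the block was kept as planned.

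All 10 members are named. Each list is represented by the 3 genes of lowest p in the comparison of treated lines, with E2F6, the DP, cyclin D1 and E, CDKN1A and MuvB genes in every case, and the 3 most similar genes per member. Members and lists were chosen with earlier results of these data known. Log2 CPM used a prior count of 2. Other settings tried were DESeq2 1.42.0, the likelihood ratio test, other scalings and filters, GC corrections (10 bins for the full-quantile one), the replicate block, only the groups compared and each library left out. A planned comparison of protein sequences was not run. Values of a few genes are not reported here.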

Additional observations from a re-analysis of the deposited data

Results flagged for a closer look

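For 7 genes, Dox/IAA had a different effect in SDS22-degron than in parental cells in the test of the difference itself (the interaction, by the quasi-likelihood test of edgeR at an adjusted p under 0.05). On the log2 scale this difference was -1.81 for E2F8, -1.20 for E2F1, -1.08 for E2F2, -0.87 for RBL1, -0.82 for E2F7 and -0.48 for E2F3, and it was 0.55 for RBL2. In each of the 6 genes with a negative value all 3 treated SDS22-degron libraries were below the untreated ones, and in RBL2 all 3 were above them. Groups of 3 libraries were not searched for outlying samples. The treated SDS22-degron replicate 2 had the lowest E2F1 level, 18.6 CPM beside 32.8 and 28.6 CPM, and without it the interaction of E2F1 was -0.99 (adjusted p = 0.000102).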

How the results depend on the processing

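Of 900 recomputed fold changes of the 10 genes, 851 kept their direction and their side of the threshold, 2 lost and 20 gained significance, and 27 changed sign, none of which had passed the test. At the study's cut-off on p and fold change, 3 of the genes passed between the treated lines, 0 between the untreated lines, 3 within SDS22-degron cells, 0 within parental cells and 3 in the interaction. Within parental cells the count was 2 when scaled by library size only, without the filter, with a GC correction and replicate block, and with full-quantile normalization over GC bins, RB1 being higher in each. With library size only, 35.9% of all calls in that comparison were lower, beside 49.5% with TMM. With 1 library left out, 7 to 8 genes passed between the treated lines, 3 to 4 between the untreated lines, 8 to 8 within SDS22-degron cells, 1 to 3 within parental cells and 7 to 8 in the interaction. Leaving out replicate 2 of treated parental cells added E2F2 and E2F7 in parental cells, and leaving out replicate 1 added RB1. The causes of these changes were not tested.

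Values that changed sign were all close to 0. Between the treated lines E2F5 was 0.0154 with upper-quartile scaling, 0.0293 with the GC correction, 0.0305 with that and the replicate block, and 0.0450 with full-quantile normalization. Within parental cells RBL1 was 0.0446 with library size only and 0.00910 with upper-quartile scaling, and E2F8 was -0.00146 without the filter and -0.000799 with the replicate block. There E2F1 was -0.0630 with the GC correction, -0.0648 with that and the block, and -0.0309 with full-quantile normalization. With 1 library left out, the ranges in parental cells were -0.0163 to 0.0129 for E2F1, -0.0850 to 0.0875 for E2F3, -0.131 to 0.117 for E2F8 and -0.159 to 0.0915 for RBL1. Between the treated lines they were -0.0875 to 0.0463 for E2F5 and -0.244 to 0.00226 for RB1, and between the untreated lines -0.00343 to 0.169 for E2F3 and -0.209 to 0.000409 for E2F7.

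Same-numbered libraries of different groups deviated together with r over 0.1 in 7 of 18 pairs (-0.06 to 0.25) and differently numbered ones in 0 of 36. All 3 pairs passed between the treated lines and within parental cells, and not in the other comparisons. The replicate block alone changed no call of the 10 genes in any comparison, with 7 still called between the treated lines and 1 within parental cells, and raised the calls over all genes from 7486 to 8025 between the treated lines and from 5264 to 5985 within parental cells. With 3 libraries per group, the confidence intervals given above limit what can be said of genes that did not pass.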
